A study of Danio rerio with 6 samples.

Results

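The compact constitutive open regions are 708 short stretches of the zebrafish genome that were called as open chromatin in each of 6 ATAC-seq peak lists, in endothelial and in non-endothelial nuclei alike. They were chosen by joining peaks that shared 1 bp or more across the lists and by keeping the merged regions of 300 bp or less with a peak in every list. They make up 3.49% of the 20275 regions called in all 6 lists (95% exact binomial interval 3.24% to 3.75%, which covers counting error only) and come from 187225 union regions in total. Peak calls and region width chose them, so both are given below as descriptions.

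ATAC-seq maps open chromatin with a transposase that inserts adapters where DNA is accessible. Nuclei came from deyolked Tg(fli1a:egfp) embryos at 24 hours post fertilization, in which regulatory sequence of fli1a, an ETS transcription factor gene, drives GFP in endothelial cells. All groups carried this transgene. Nuclei were sorted by fluorescence into GFPplus (labelled as endothelial, 3 libraries) and GFPminus (labelled as non-endothelial, 3 libraries), with 20000 nuclei per library. The fli1a reporter defines the GFPplus fraction, and GFPminus holds the remaining cell types of the embryo together. The labelled cell types were not checked against marker genes, because gene positions in the build of the lists (Zv9) were not used here.

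Open chromatin is DNA from which nucleosomes, the protein spools that package it, have been displaced by transcription factors or by the transcription machinery. Regions that are open in every cell type of an animal are typically promoters of broadly used genes and binding sites of architectural proteins such as CTCF, whereas distal enhancers tend to be open in fewer cell types. A narrow open region may be a single factor-bound gap between nucleosomes, and a wide one often holds several adjoining gaps. Which of these the compact regions are was not examined here.

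GFPplus replicates 1, 2 and 3 had 72695, 73716 and 50396 peaks, and GFPminus replicates 1, 2 and 3 had 113476, 110663 and 33437. GFPminus replicate 3 stood apart, with the shortest list and a shortest peak of 160 bp, where the other libraries had shortest peaks of 108 to 116 bp. A call in all 6 lists therefore depended most on this library. Without GFPminus replicate 3, 2393 regions of 300 bp or less were called in all of the remaining 5 lists, and these overlapped each of the 708 compact regions. That overlap follows largely from the rule, since each compact region already had a peak in those lists.

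A short region was rarely a shared one. Of the 128270 union regions of 300 bp or less, 92069 were called in 1 list, 22013 in 2, 8081 in 3, 3516 in 4 and 1883 in 5. The 708 called in all 6 were 0.552% of them. Within the regions called in all 6 lists, the limit of 300 bp cut into the lower flank of a single broad hump of widths, with no gap at the limit. Compact regions were between 168 and 300 bp wide (median 277.5 bp, quartiles 259 and 289 bp), and 582 of them were wider than 250 bp. Only 17 were 200 bp or less. The median over all regions called in 6 lists was 589 bp. Compact regions covered 192 kb, or 1.48% of the 12938 kb in regions called in all 6 lists.

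**Figure D1:**
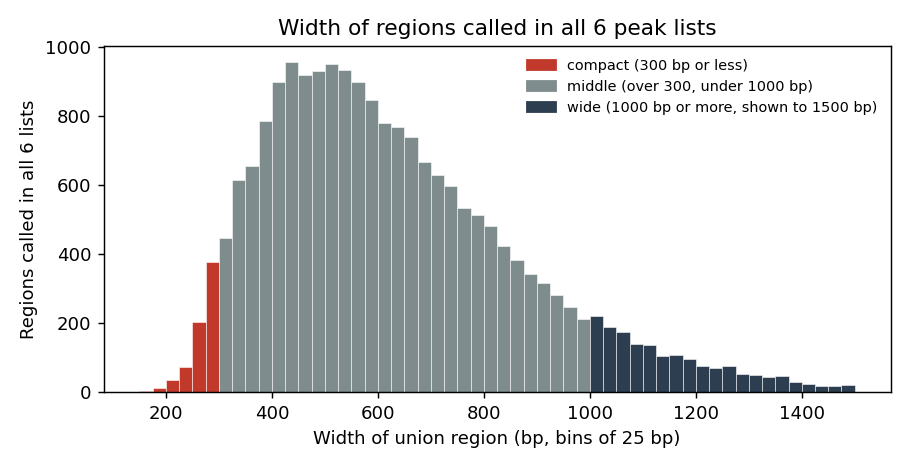
Number of regions called in all 6 lists (vertical axis) by width of the union region in bp (horizontal axis, bins of 25 bp, shown to 1500 bp). The compact regions (red) form the lower flank of the distribution and run without a step into the middle class (grey), while the 1853 wide regions (dark blue) form its upper tail.

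Members just inside the limit resembled regions just outside it. The 81 members at most 4 bp below the limit had a median summit range of 78 bp and a median within-list percentile of fold enrichment of 71.1. The 65 regions wider than the limit by at most 5 bp had 88 bp and 69.0.

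Each compact region was a single peak in each list. All 708 had exactly 1 peak per list, against 78.2% of the 17714 middle regions (over 300 bp and under 1000 bp) and 14.6% of the 1853 wide regions (1000 bp or more) called in all 6 lists. Single peaks within compact regions had median widths of 219, 203 and 178 bp in GFPplus replicates 1 to 3 and 216, 210 and 188 bp in GFPminus replicates 1 to 3. GFPminus replicate 3, with a minimum of 160 bp, had little room between its shortest possible peak and the limit. A region of 300 bp or less leaves little room for a second peak of the same list, and none in GFPminus replicate 3. The contrast in peaks per list therefore follows largely from the rule.

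Compact regions were of moderate strength, with medians below those of wider constitutive regions in the same list. The authors' peak caller gives each peak a fold enrichment at its summit over the local background. The median fold enrichment in compact regions was 6.01, 5.49 and 5.67 in GFPplus replicates 1 to 3 and 6.27, 6.24 and 5.06 in GFPminus replicates 1 to 3. In middle regions the medians ran from 6.23 to 7.78 and in wide regions from 7.42 to 8.57. In each of the 6 libraries the order of the medians was compact, middle, wide. The quartile ranges overlapped, as in GFPplus replicate 1 with 4.67 to 7.64 in compact and 5.78 to 9.76 in middle regions. Where a list had several peaks in a region, the highest fold was used, which can raise the values of middle and wide regions. The percentiles and pileups below rest on the same choice of peak. The classes are defined by width. How far the width limit itself selected weaker peaks was not tested for fold, percentile or pileup.

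The median rank of compact regions within a list went with the length of the list. List length and depth were not told apart here. The within-list percentile of fold enrichment, the percent of a list's peaks that lie lower, had a median of 81.0 and 81.1 in the long lists of GFPminus replicates 1 and 2 and of 42.9 in the short list of GFPminus replicate 3. GFPplus replicates 1 to 3 had medians of 68.9, 69.6 and 57.8. GFPplus libraries averaged 65.5 ± 6.64 (SD, n = 3) and GFPminus libraries 68.4 ± 22.0 (SD, n = 3), a difference of -2.89 points that was smaller than the spread between libraries (exact permutation p = 1, two-sided; no p below 0.1 is possible with 3 libraries in each fraction). Over the larger set of 2393 regions chosen without GFPminus replicate 3, the difference was -14.7 points (exact permutation p = 0.1, the smallest possible). GFPminus then kept only the long lists of replicates 1 and 2. Ranked only among the regions called in all of the remaining lists, the same 2393 regions differed by 0.666 points (exact permutation p = 0.4).

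Ranked only among the 20275 regions called in all 6 lists, a set of the same size in every library, the libraries came together. Compact regions then had median percentiles of 28.9, 28.0 and 29.9 in GFPplus and of 29.3, 29.9 and 26.1 in GFPminus replicates 1 to 3. GFPplus averaged 28.9 ± 0.935 and GFPminus 28.4 ± 2.04 (SD, n = 3 each), and the 2 fractions overlapped (difference 0.518 points, exact two-sided permutation p = 0.8). With all 6 libraries, neither ranking separated the sorted fractions over the compact regions as a whole. Over the 1059 regions chosen without GFPplus replicate 3, the difference in the second ranking was 1.76 points (exact permutation p = 0.1, the smallest possible).

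The deposited fold and −log10 p of a peak together gave the number of fragments piled up at its summit and the background expected there, and so how much of the lower fold lay in the pileup. A whole pileup was found for all but 6 of the 454383 peaks (tolerance 0.001 in −log10 p), including every peak in a compact region. The median summit pileup in compact regions was 22, 20 and 13 fragments in GFPplus replicates 1 to 3 and 25, 25 and 11 in GFPminus replicates 1 to 3. Set against the genome-wide background of each list, taken here to scale with depth, these were 13.8, 12.6 and 15.5 times in GFPplus and 14.0, 13.6 and 13.7 times in GFPminus. The same medians were 15.1 to 19.1 times in middle regions and 22.6 to 28.6 times in wide regions. Scaled in this way, compact regions had nearly the same pileup in GFPminus replicate 3 as in the deep GFPminus libraries (GFPplus 14.0 ± 1.46, GFPminus 13.8 ± 0.21, SD, n = 3 each, exact two-sided permutation p = 0.8). The rule required a peak in GFPminus replicate 3, so only regions strong enough to be called there entered. How far this requirement shaped the likeness was not tested.

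The median local background was also lower in compact regions than in wider ones. Whether a region's own fragments raised its background was not tested. The caller tests each peak against the genome-wide background or a higher local one. In compact regions the background used was a median of 1.62, 1.55 and 1.54 times the genome-wide one in GFPplus replicates 1 to 3 and 1.52, 1.49 and 1.49 times in GFPminus. The medians were 1.65 to 1.82 in middle and 2.30 to 2.70 in wide regions. In 47 compact regions (6.64%) the genome-wide background was used in all 6 libraries, against 1.80% of middle and 0.486% of wide regions. Several measures were compared between the fractions, without correction for their number. For the background in compact regions, the 3 GFPplus medians lay above the 3 GFPminus medians by 0.0688 on average (1.57 ± 0.0447 against 1.50 ± 0.0169, SD, n = 3 each, exact two-sided permutation p = 0.1, the smallest possible). In middle and in wide regions the fractions overlapped (differences 0.0384 and 0.0852, exact permutation p = 0.6 each). The difference between these classes was not tested.

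**Figure D2:**
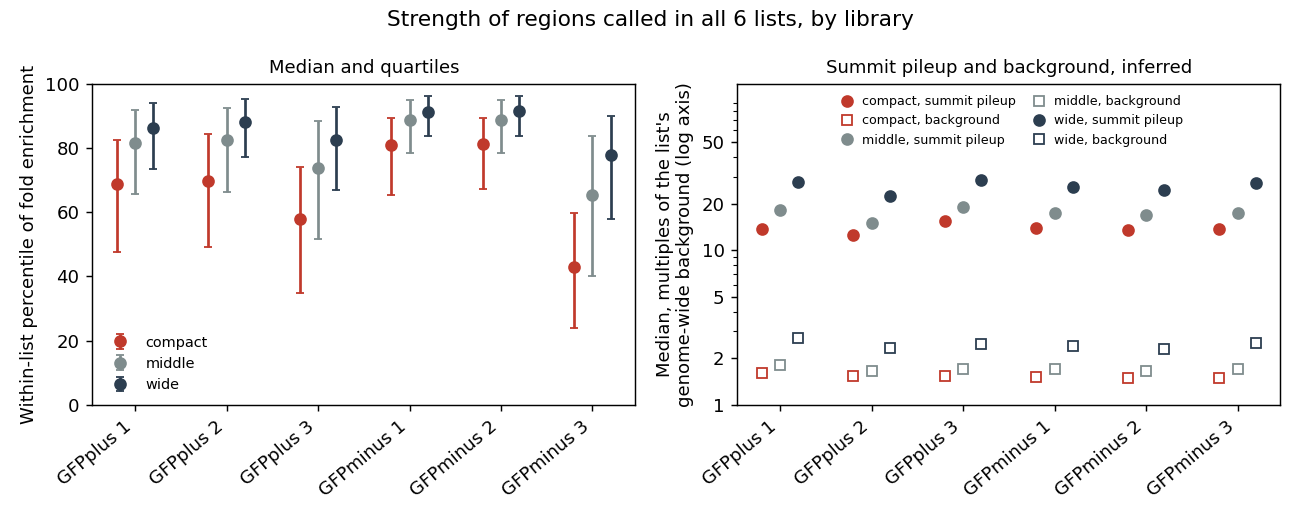
Left, within-list percentile of fold enrichment in each library (points, median over regions; bars, quartiles). Right, median summit pileup (filled circles) and median background at the summit (open squares), both inferred and given as multiples of the genome-wide background of the list, on a log axis. Medians of compact regions (red) lie below those of middle (grey) and wide regions (dark blue) in every library. Their median percentile is lowest in GFPminus replicate 3 (42.9) while their scaled pileup there is 13.7, inside the range of the other libraries.

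Few compact regions were strong in every list. The lowest of a region's 6 within-list percentiles had a median of 29.8 in compact, 53.2 in middle and 71.9 in wide regions. It was at least 50 in 153 compact regions (21.6%) and at least 90 in 5 of them (0.706%), where middle regions reached 90 in 9.43% and wide regions in 17.2%. GFPminus replicate 3 gave the lowest percentile in 374 compact regions and GFPplus replicate 3 in 166, the libraries with the shortest lists.

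The 6 compact regions named first are those with the highest value of that lowest percentile. Positions are in Zv9 and 1-based. Their values are descriptions of the selection.

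On chromosome 22 at 28947428 to 28947628, a region of 201 bp was among the strongest peaks of 5 libraries. Its fold enrichment was 27.7, 44.4 and 39.7 in GFPplus replicates 1 to 3 and 42.4, 45.5 and 9.42 in GFPminus replicates 1 to 3. By fold it ranked 7, 2 and 4 in the GFPplus lists and 2 and 2 in GFPminus replicates 1 and 2, but 3437 in GFPminus replicate 3. The summit pileup was 71, 114, 72, 117 and 128 fragments in the first 5 libraries and 16 in GFPminus replicate 3, and the genome-wide background applied in all 6. Scaled to that background, the pileup was 44.5 to 85.8 times in the first 5 libraries and 19.9 times in GFPminus replicate 3, so it was also lower there on a scale that does not use list length. The summit fell on the same base, 28947531, in 5 lists and on 28947529 in GFPminus replicate 3, which was the closest agreement of all compact regions. The cause of the lower value in GFPminus replicate 3 was not tested.

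The highest lowest percentile (94.6) belonged to a region of 265 bp at the start of the unplaced sequence Zv9_NA21, at 61 to 325. Fold enrichment there was 12.3, 25.9 and 11.4 in GFPplus replicates 1 to 3 and 22.6, 21.2 and 11.1 in GFPminus replicates 1 to 3. GFPplus replicate 2 and GFPminus replicates 1 and 2 were thus high and the other libraries low, which cut across the sorted fractions. Another of the 6, of 200 bp, was on the unplaced sequence Zv9_NA915 at 14793 to 14992, with folds of 9.25, 9.27 and 10.3 in GFPplus and 11.1, 13.4 and 10.5 in GFPminus. The genome-wide background applied to both in every library.

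The remaining members of this group were on chromosomes 2, 16 and 9. On chromosome 2 at 8472940 to 8473232 the fold was 10.1, 10.8 and 10.5 in GFPplus and 13.2, 13.0 and 11.3 in GFPminus. All GFPminus folds lay above the GFPplus folds, as on Zv9_NA915. The pileup over the genome-wide background overlapped between the fractions in both. It was 23.8, 20.1 and 27.4 times in GFPplus and 24.1, 25.1 and 29.8 times in GFPminus on chromosome 2. On Zv9_NA915 it was 14.4, 14.5 and 21.4 times in GFPplus and 16.8, 20.2 and 22.4 times in GFPminus. On chromosome 16 at 11935641 to 11935940 the fold was 13.0, 9.96 and 13.1 in GFPplus and 11.5, 12.7 and 9.75 in GFPminus. On chromosome 9 at 46618698 to 46618938 the fold was 10.4, 8.24 and 10.4 in GFPplus and 12.2, 9.74 and 10.5 in GFPminus. In the latter pair the fractions overlapped.

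The 6 lists placed the summit of most compact regions within 100 bp of each other. The range from the leftmost to the rightmost of the 6 summits had a median of 71 bp in compact regions (95% binomial interval of the median 67 to 74 bp), with quartiles of 51 and 100 bp. This interval and the later intervals of medians cover counting error only, not variation between libraries. The range was 50 bp or less in 172 compact regions (24.3%) and 20 bp or less in 18 (2.54%). Median ranges were 113 bp in middle and 160 bp in wide regions, and 12.2% of middle and 12.6% of wide regions had a range of 50 bp or less. The room for disagreement is set by width: relative to the region's width the median range was 26.4% in compact, 21.7% in middle and 13.9% in wide regions. The smaller range of compact regions in bp is therefore in part a property of the rule.

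The median summit of the 6 lists lay near the centre of a compact region, at 49.0% of its width (quartiles 42.5% and 55.4%). It lay between 33.3% and 66.7% of the width in 95.8% of compact, 65.4% of middle and 39.3% of wide regions. A narrow region with a single peak per list leaves less room for summits off the centre, so this contrast is in part a property of the rule. Stronger members agreed better. When compact regions were divided into 3 groups by their lowest percentile, the median summit range was 87 bp in the weakest group (236 regions), 74 bp in the next (238 regions) and 60 bp in the strongest (234 regions).

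The library that disagreed most was GFPminus replicate 3, not a fraction. Its summit lay a median of 30 bp from the median of the other 5 libraries, where the other libraries lay 14.5 to 19.5 bp away, and it was the farthest of the 6 in 227 compact regions (32.1%). The mean distance between summits of a pair of libraries ran from 27.0 bp (GFPminus replicates 1 and 2) to 41.8 bp (GFPplus replicate 3 with GFPminus replicate 3). All 5 pairs with GFPminus replicate 3 were at 38.2 bp or more, and all others at 33.5 bp or less. This library also had the shortest list and the lowest median pileup (11 fragments), and their part in the result was not tested.

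Whether the sorted fraction shifted the summit was tested over the 10 ways of dividing 6 libraries into 3 and 3. Pairs between fractions averaged 33.9 bp and pairs within fractions 33.9 bp, a difference of -0.0521 bp (exact two-sided permutation p = 1, smallest possible 0.1). Over the same members without GFPminus replicate 3 the difference was -0.785 bp (exact permutation p = 0.5). In wide regions the difference was 9.50 bp (exact permutation p = 0.1, the smallest possible; 8.96 bp and exact permutation p = 0.2 without GFPminus replicate 3) and in middle regions 1.29 bp (exact permutation p = 0.4). The difference between these classes was not tested. Summits of the fractions did not overlap in 66 compact regions (9.32%), against 10% of all regions called in 6 lists, and the median shift between fraction means was then 36.7 bp.

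**Figure D3:**
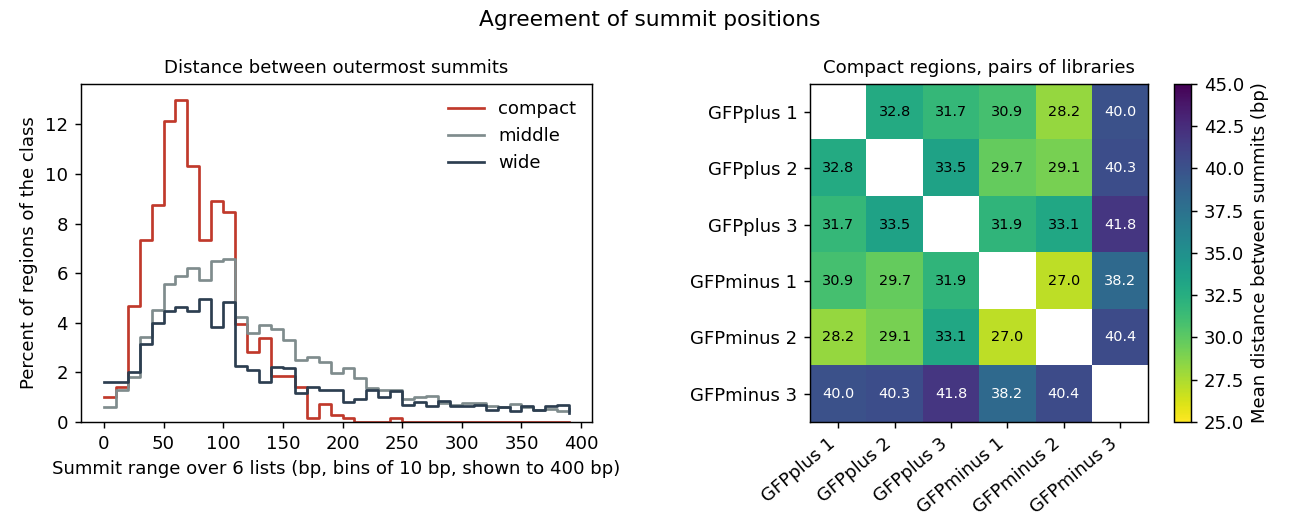
Left, distribution of the distance in bp between the outermost summits of the 6 lists, as percent of the regions of each class (bins of 10 bp, shown to 400 bp). Right, mean distance in bp between summits in compact regions for each pair of libraries. The pairs with GFPminus replicate 3 (38.2 to 41.8 bp) stand apart from the rest (27.0 to 33.5 bp), whether they join or cross the fractions.

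The tightest summits belonged to the chromosome 22 region above (range 2 bp), to chromosome 6 at 23536341 to 23536610 (5 bp) and to chromosome 7 at 74710630 to 74710881 (5 bp). These were chosen after their values had been seen. The chromosome 6 region lay 2.48 kb from a wide region and had a pileup of 106, 74 and 43 fragments in GFPplus and 94, 101 and 36 in GFPminus, yet a fold of only 4.29 to 6.70, because the local background was 7.76 to 10.2 times the genome-wide one. At the other extreme, the region on chromosome 13 at 6371006 to 6371294 had summits spread over 245 bp, with pileups of 10, 27 and 6 fragments in GFPplus and 14, 14 and 8 in GFPminus. In the latter region the summit rested on few fragments in most libraries.

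By rank of fold, compact regions whose fractions did not overlap made up shares near or below those of constitutive regions in general. By percentile among the regions called in all 6 lists, every GFPplus library lay above every GFPminus library in 66 compact regions (9.32%), against 10.6% of all 20275. Every GFPminus library lay above every GFPplus library in 54 (7.63%), against 10.9%. Regions were not tested one by one, since no p below 0.1 is possible with this number of libraries. The difference between the mean percentiles of the fractions was at least 20 points in 163 compact regions (23.0%), against 22.2% of all.

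The largest differences toward GFPplus, named by a rule on these same values and so given as descriptions, were on chromosomes 3, 20 and 22. On chromosome 3 at 29661884 to 29662179 the percentile among the regions called in all 6 was 85.3, 88.2 and 89.8 in GFPplus and 20.7, 42.4 and 19.9 in GFPminus. The pileup there was 35.1, 27.0 and 40.5 times the genome-wide background in GFPplus and 9.54, 13.1 and 9.95 times in GFPminus. On chromosome 20 at 2523717 to 2523994 the fold was 14.5 ± 2.93 in GFPplus and 6.27 ± 0.60 in GFPminus (SD, n = 3 each). On chromosome 22 at 10569177 to 10569460 it was 9.92 ± 1.59 and 5.37 ± 1.24 (SD, n = 3 each). The lowest GFPplus fold exceeded the highest GFPminus fold in all 3 regions.

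Toward GFPminus the largest differences were on chromosomes 5, 13 and 6. On chromosome 5 at 34400310 to 34400592 the percentile was 6.34, 22.7 and 0.229 in GFPplus and 71.9, 73.3 and 39.9 in GFPminus. This region lay 8.26 kb from a wide region of 1153 bp and in a busy stretch, with a background 3.36 to 4.21 times the genome-wide one in all libraries. On chromosome 13 at 49584779 to 49585059 the fold was 4.37 ± 0.369 in GFPplus and 7.89 ± 2.22 in GFPminus (SD, n = 3 each). On chromosome 6 at 59754448 to 59754663 it was 5.10 ± 1.04 and 8.70 ± 2.31 (SD, n = 3 each), and the highest GFPplus value of 6.25 exceeded the value of 6.03 in GFPminus replicate 3. The percentiles and the pileup over the genome-wide background were separated there, the latter at 20.7, 18.2 and 15.5 times in GFPplus and 30.9, 27.8 and 21.1 times in GFPminus.

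**Figure D4:**
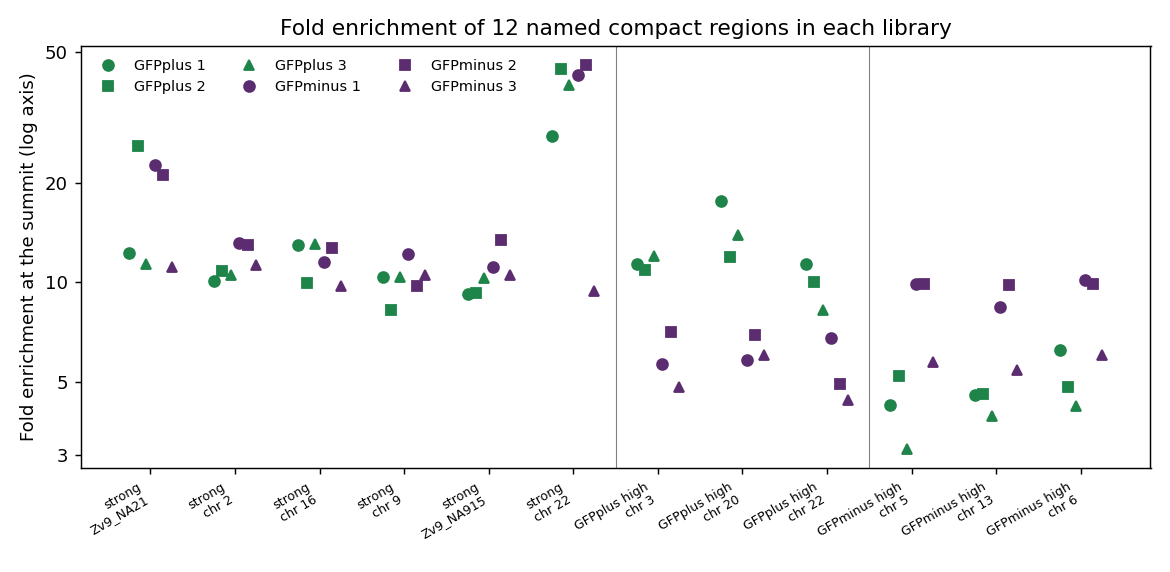
Fold enrichment at the summit (log axis) in each of the 6 libraries for the 12 named regions, labelled by chromosome or unplaced sequence: the 6 with the highest lowest percentile (left), and the 3 each with the largest difference toward GFPplus (centre) and GFPminus (right). In the chromosome 22 region at left, 5 libraries lie between 27.7 and 45.5 and GFPminus replicate 3 lies at 9.42.

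A library that took no part in the choice offered a further look at the calls. Regions of 300 bp or less called in 5 lists were chosen without the sixth, and the sixth was then searched for an overlapping peak. GFPminus replicates 1 and 2 had one in 97.0% of 954 and 96.7% of 923 regions, and GFPplus replicates 1, 2 and 3 in 92.9% of 1048, 91.5% of 909 and 75.6% of 1059. GFPminus replicate 3 had one in 40.9% of 2393 (95% exact binomial interval 38.9% to 42.9%). Middle regions chosen in the same way were found more often in every library, from 75.2% in GFPminus replicate 3 to 99.2% in GFPminus replicate 2. Where the left-out library had a peak, its summit lay a median of 15 to 20 bp from the median summit of the other 5 in the first 5 libraries and 37 bp in GFPminus replicate 3. The shares were highest in the 2 longest lists and lowest in the 2 shortest, and GFPminus held both the highest and the lowest of them.

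Neighbouring compact regions were mostly far apart. Their spacing depends on their number and was not set beside that of another class or of random placement. The 656 distances between neighbours on the same sequence had a median of 1144 kb (95% binomial interval of the median 980 to 1370 kb), with quartiles of 374 and 2740 kb. In 68 pairs (10.4%) the midpoints were 100 kb or less apart. In 16 pairs (2.44%) they were 10 kb or less apart, in 2 pairs 1 kb or less, and no stretch of 10 kb held more than 2. The closest midpoints were 772 bp apart. The pairs named next were taken by order of sequence among those within 10 kb, not by closeness. One pair lay on the unplaced sequence Zv9_NA443 at 469 to 748 and 5981 to 6217, another on Zv9_scaffold3563 at 46451 to 46697 and 47861 to 48079, and a further one on chromosome 1 at 24946375 to 24946548 and 24955634 to 24955926. At the first Zv9_NA443 region the fold was 5.39, 14.7 and 5.44 in GFPplus and 11.5, 10.9 and 6.10 in GFPminus, which was the same pattern of libraries as on Zv9_NA21.

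Wide constitutive regions were mostly far from compact regions, as they were from other open regions. The gap to the nearest wide region had a median of 189 kb in compact regions (95% binomial interval of the median 163 to 214 kb), 201 kb in middle regions and 226 kb in the 1883 regions of 300 bp or less called in 5 lists. Another 28 compact regions lay on sequences without a wide region. Within 10 kb of a wide region were 39 compact regions (5.51%), against 3.89% of middle regions and 5.95% of the short regions called in 5 lists. At distances over 1 Mb these shares were 10.6%, 9.13% and 9.19%. No test was run on these shares, since regions of one genome are not replicates.

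Other open regions of any kind were nearer. The nearest union region lay at a median gap of 1.18 kb from a compact region, 1.89 kb from a middle region and 1.36 kb from a short region called in 5 lists. It was within 200 bp of 15.4% of compact and 15.3% of middle regions, and within 500 bp of 235 compact regions (33.2%) and 27.4% of middle regions. The nearest region called in all 6 lists was at a median of 9.13 kb from compact and 14.0 kb from middle regions, and within 1 kb for 14.0% and 7.32%. For 26.2% of compact regions the nearest neighbour of any kind was itself called in all 6 lists, against 17.0% of middle and 18.8% of short regions called in 5 lists. Nearby peaks that touch are merged into 1 wider region by the rule, so short gaps near a compact region are those that no list bridged.

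**Figure D5:**
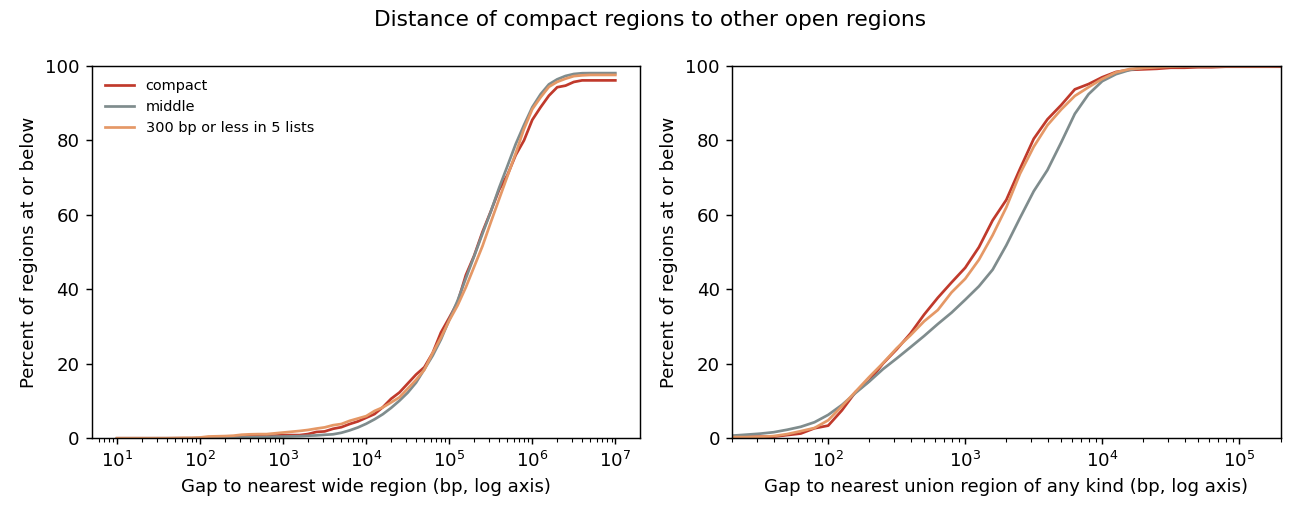
Percent of regions (vertical axis) whose gap in bp (horizontal log axis) to the nearest wide region (left) or to the nearest union region of any kind (right) is at or below the value. Compact regions (red) follow middle regions (grey) and short regions called in 5 lists (orange) closely at left, with medians of 189, 201 and 226 kb, and at right they lie below middle regions at gaps of 100 bp or less and above them between 500 bp and 10 kb, with medians of 1.18 and 1.89 kb.

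The compact regions nearest to a wide region had a higher background and a lower fold than the rest. The 39 compact regions within 10 kb of a wide region had a median background of 2.90 times the genome-wide one, a pileup of 17.8 times and a fold of 4.84. The 190 members at over 10 to 100 kb had 1.74 times, 14.9 times and 5.76, the 376 at over 100 kb to 1 Mb had 1.43 times, 12.8 times and 5.72, and the 75 at over 1 Mb had 1.47 times, 13.3 times and 5.74. The fold was thus lower only within 10 kb and level beyond. A higher background lowers the fold by its definition. Whether the wide region itself raised the background was not tested. The lowest percentile had a median of 12.7 within 10 kb and of 28.9 to 30.8 in the other groups. On chromosome 3 at 8434186 to 8434474, 199 bp from a wide region of 1824 bp, the pileup was 84, 81 and 48 fragments in GFPplus and 85, 83 and 36 in GFPminus, while the fold was 3.58 to 5.60 over a background 7.65 to 11.6 times the genome-wide one. Only a pair of members lay closer, at 137 bp on chromosome 23 (2551915 to 2552206) and at 154 bp on chromosome 14 (12649523 to 12649811). The most remote were on chromosome 16 at 22382494 to 22382782 and 22586518 to 22586810, at 3656 and 3452 kb, and on chromosome 15 at 11845308 to 11845515, at 3253 kb.

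Every numbered chromosome held compact regions, from 16 on chromosome 24 to 45 on chromosome 3. Their share of the regions called in all 6 lists was lowest on chromosome 19 (2.03%, 17 of 836, 95% exact binomial interval 1.19% to 3.24%) and highest on chromosome 4 (4.81%, 24 of 499, 3.11% to 7.07%). These are the extremes of the numbered chromosomes, the intervals cover counting error only, and a difference between chromosomes was not tested. Unplaced sequences held 30 compact regions on 27 sequences, 5.87% of the 511 regions called in all 6 lists there (95% exact binomial interval 4.0% to 8.28%), against 3.43% on numbered chromosomes. Unplaced sequences carried 4.24% of the compact regions, against 2.52% of all regions called in all 6 lists. The 6 strongest named above include 2 on unplaced sequences, which describes that selection only.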

How the data were processed

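The authors deposited 1 narrowPeak list per library, called per library according to the file headers (build danRer7, also named Zv9). MACS2 and deepTools, with Bowtie2 2.1.0 and cutadapt 1.3, are named in the submitters' processing notes, and their settings are not given in the sources at hand. Per the file headers and layout, the deposited values are the fold enrichment (ratio) at the summit, the summit offset in bp, −log10 of p and of q, and a score. They were used to rank and describe peaks within a list. Depth is unknown apart from the pileup inferred below.

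The regions and their measures were chosen with earlier results of these data known. Where a list had several peaks in a region, the one with the highest fold was used, and its summit was the start plus column 10. Percentiles place ties at the middle. Gaps were measured between region edges. Pileup and background were solved from fold = (pileup + 1) / (background + 1) and −log10 p as the Poisson tail above the pileup, the caller's formula as assumed here, and no background fell below the genome-wide one of its list. Libraries were compared by exact permutation tests. The code (Python 3.11.15, numpy 2.4.6, pandas 2.3.3, scipy 1.17.1) was tested on simulated data. Named regions were the 6 with the highest lowest percentile, the 3 with the largest difference each way among those whose fractions did not overlap, the 3 closest to and farthest from a wide region, and 3 neighbouring pairs. Replicates are described as separate collections in the series' design text. Sequence and genes in Zv9 were not used here, and no sequence is printed.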

Additional observations from a re-analysis of the deposited data

How the results depend on the processing

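The 708 compact regions depend on list length and on the width limit. With −log10 q values of 5 or more there were 249 (2.01% of regions called in all lists; median summit range 56 bp; 251 kb to a wide region; spacing 3292 kb; 23 and 19 with ranks separated toward GFPplus and GFPminus). With lists of equal length there were 318 (2.28%, 60 bp, 216 kb, 2792 kb, 30 and 22), each overlapping one of the 708. A width limit of 250 bp gave 126 (0.621%, 62 bp, 234 kb, 7656 kb, 10 and 10) and one of 350 bp gave 1767 (8.72%, 81 bp, spacing 468 kb, 159 and 146). Fewer or more regions follow from these settings by construction. At that −log10 q the difference in summit distance between and within fractions turned to 0.635 bp and the within-list percentile difference to 1.65 points, and at equal length the former turned to 0.133 bp (exact permutation p = 0.7, 1 and 0.9). Without 1 library each, the count ran from 909 to 2393, the share from 4.37% to 8.66%, the summit range from 65 to 69 bp, the summit difference from -1.61 to 1.27 bp, the percentile difference from -14.7 to 2.92 points, that among regions called in every list from -0.0988 to 2.53, the gap to a wide region from 197 to 272 kb, the spacing from 325 to 919 kb, and the separated ranks from 118 to 330 and from 103 to 335; fewer lists are then required. An overlap of 50% of the shorter peak gave 706 regions and numbered chromosomes alone gave 678, and each difference between fractions kept its sign. The sign also held with ranks by −log10 p and, added after seeing the data, by inferred pileup. Separated ranks then numbered 82 and 56 by −log10 p and 87 and 66 by inferred pileup, against 66 and 54 by fold. The share over all regions called in every list is not given beside the separated ranks for any changed setting. Most of these counts also change with the number of regions, and no result was read from them. Same-numbered libraries correlated at 0.045, 0.062 and 0.143 in their deviations, and differently numbered ones at -0.096 to 0.056. The same-numbered correlations were not all above 0.1, so the libraries were not paired. With a replicate block the differences of -0.0521 bp, -2.89 and 0.518 points each had an exact permutation p = 1. The smallest possible there is 0.25.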
